A study of Mus musculus with 12 samples.

Results

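Fibroblast growth factor (FGF) genes were followed in heart organoids (HOs), which were grown with added FGF4 protein, and in mouse embryonic hearts. The gene set held 37 of the 26190 genes of the deposited table. It was defined by gene name, by a rule set with earlier results of these data known. The set held 22 ligand genes (Fgf1 to Fgf18 and Fgf20 to Fgf23), 5 receptor genes (Fgfr1 to Fgfr4 and Fgfrl1) and 10 response genes (Spry1 to Spry4, Spred1 to Spred3, Dusp6, Etv4 and Etv5). Total RNA was sequenced from 4 groups of 3 libraries: atria and ventricles of hearts of stage E11.5 (E11.5H), and the atrium-like and ventricle-like parts cut from HOs on day 13 of culture. The labels give the strain C57BL/6 for all groups and name no transgene. HOs were grown from embryonic stem cells on a laminin and entactin gel with FGF4, and BMP4, the Wnt activator BIO and LIF were added for the last days. The study used several stem cell lines, and the labels do not say which line, or how many pooled HOs or embryos, stood behind a library, so p-values measure the spread between these libraries only.

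FGFs are ligands that bind receptor tyrosine kinases together with heparan sulfate chains, and a bound receptor signals through Ras and the kinase ERK. ERK signalling switches on the transcription factors Etv4 and Etv5 and, as feedback inhibitors, the Sprouty (Spry) and Spred proteins and the phosphatase Dusp6, so that these genes are commonly used as readouts of FGF signalling. Fgf15, Fgf21 and Fgf23 are circulating hormones that need a Klotho co-receptor, whereas Fgf11 to Fgf14 stay inside the cell and bind voltage-gated sodium channels. In the embryo, Fgf8 and Fgf10 are known from the second heart field, the progenitors that add to the heart tube, and Fgf9 from the epicardium and endocardium, where it acts on the growth of the ventricular muscle.

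Libraries held 23971258 to 30540993 counts, so that a count of 0 allowed up to 0.0982 to 0.125 CPM, counts scaled to a common library total, for counting error only. A gene's level is its deposited FPKM, which divides by transcript width and so permits comparison between genes. The libraries of HOs stood apart from those of E11.5H and from each other. The cardiomyocyte troponin gene Tnnt2 had 842 to 974 FPKM in E11.5H and 30.6 to 486 FPKM in HOs, and the summed level of 16 cardiomyocyte markers was 37482 to 49243 CPM against 1249 to 11822 CPM. The summed level of 12 hepatocyte and visceral endoderm markers was 5.13 to 11.4 CPM in E11.5H and 55.4 to 28117 CPM in HOs. Myod1, the master gene of skeletal myoblasts, had 10.2 FPKM in atrium-like replicate 2 and 19.3 FPKM in ventricle-like replicate 2, and 0 in the other HO libraries. In E11.5H it had 0.0610, 0.817 and 3.42 FPKM in atria and 0 in ventricles. In such bulk samples, fewer cells of a type and less RNA per cell cannot be told apart. The between-library coefficient of variation estimated by edgeR was 0.211 within E11.5H and 0.677 within HOs.

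Most Fgf ligand genes were at low levels. The class is set by gene name and so includes the intracellular Fgf11 to Fgf14. In E11.5H the highest ligand gene was Fgf13, at 11.3 ± 0.985 FPKM (SD, n = 3) in atria and 15.1 ± 1.69 FPKM in ventricles. In atria it was followed by Fgf18, at 2.36 ± 0.393 FPKM, and by Fgf12, at 1.68 ± 0.147 FPKM. In ventricles it was followed by Fgf1, at 2.56 ± 0.258 FPKM, and Fgf9, at 2.39 ± 0.570 FPKM, a pair whose levels did not differ beyond their spread. In HOs the highest was Fgf21, with 8.15 ± 5.83 FPKM in the atrium-like and 12.7 ± 9.19 FPKM in the ventricle-like parts. It was followed in atrium-like parts by Fgf11, at 3.18 ± 2.11 FPKM, and in ventricle-like parts by Fgf13, at 5.82 ± 6.42 FPKM, and Fgf11, at 5.69 ± 2.21 FPKM, and in HOs the spreads of these neighbours overlapped. Apart from the intracellular genes, the highest were Fgf18 in atria, Fgf1 and Fgf9 in ventricles and Fgf21 in both HO parts.

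**Figure D1:**
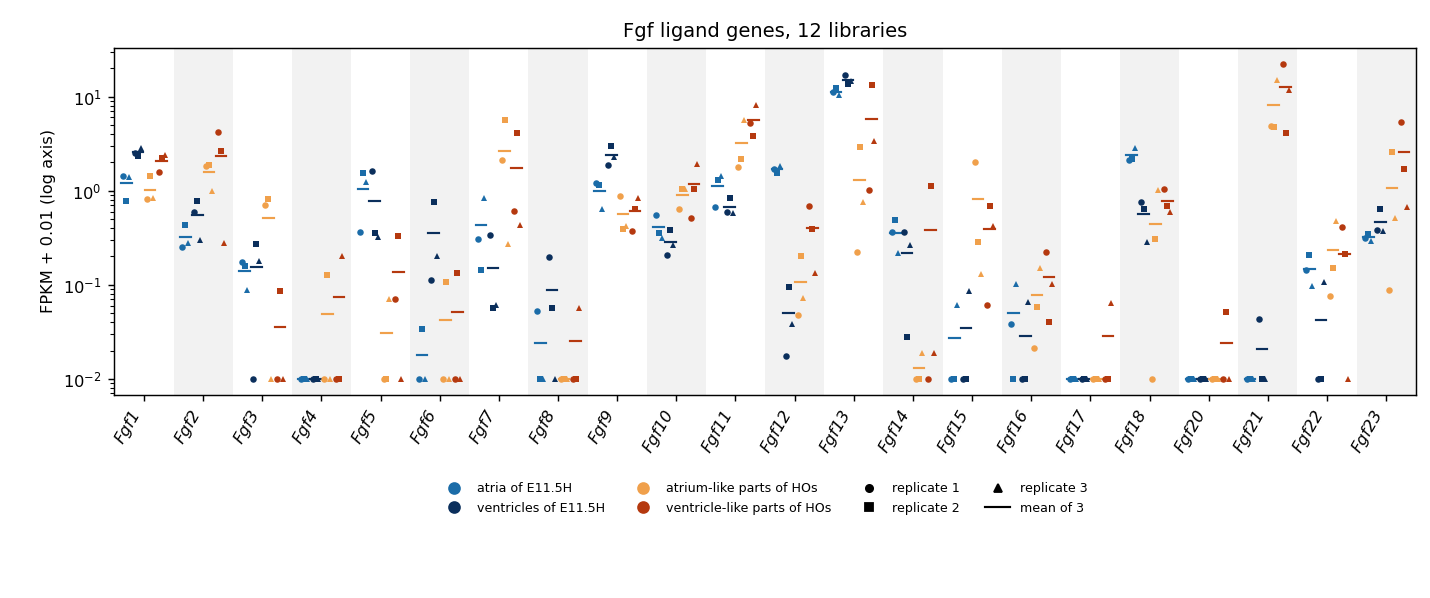
Level of the 22 Fgf ligand genes in each of the 12 libraries, as FPKM plus 0.01 on a log axis. Colours mark the 4 groups, symbols the replicate number and bars the mean of 3 libraries; points at the bottom are libraries with no count. Fgf21 was nearly at 0 in E11.5H and at 4.10 FPKM or more in every HO library, and Fgf4 had counts in 2 libraries.

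The gene of the added factor itself, Fgf4 (chromosome 7 from 144861386 to 144865245 of GRCm38), was at 0 in all 6 libraries of E11.5H. In HOs it had 12 counts (0.117 FPKM) in atrium-like replicate 2, 19 counts (0.193 FPKM) in ventricle-like replicate 3 and none in the other 4. Fgf3 and Fgf15 are its neighbours on chromosome 7. Fgf15 had 103, 17 and 7 counts in atrium-like parts and 3, 40 and 24 in ventricle-like parts, and at most 4 counts in any library of E11.5H. Fgf3 reached 24 and 33 counts in atrium-like replicates 1 and 2 and was at 10 counts or fewer elsewhere. These 3 genes were thus near the limit of detection in most libraries. The filter on low counts left out Fgf3 and Fgf4 in every comparison, and also Fgf6, Fgf8, Fgf16, Fgf17, Fgf20 and Fgf22, of which none had more than 30 counts in any library. Fgf8, the second heart field ligand, had at most 8 counts.

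Differences between the chambers of E11.5H were tested first, as the reference for the parts of HOs. Of the 37 genes 26 passed the filter, and 6 were called, that is, differed more than 2-fold at an edgeR adjusted p under 0.05. Over all 14536 genes tested, 4.90% were called. Fgf12 and Fgf18 were higher in atria, as were 2.92% of all genes, and Fgf1, Fgf9, Spry4 and Etv4 were higher in ventricles, as were 1.97%. The median log2 fold change of the 26 was 0.05, and that of all genes tested was 0.01. All 6 calls were lost when the 12 libraries shared 1 fit, in which the spread of HOs entered. In that fit 30 of all 16494 genes were called, against 712 of 14536 in the main fit.

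Fgf12 (chromosome 16 from 28157783 to 28753243), an intracellular FGF of sodium channels, had 1.68, 1.54 and 1.83 FPKM in the 3 atria libraries and 0.00738, 0.0843 and 0.0280 FPKM in the ventricles. The groups were far apart, with 438 to 504 counts per library in atria and 2 to 23 in ventricles. Its log2 fold change was 5.31 (standard error, SE, 0.52, edgeR adjusted p = 0.000128), and 4.80 to 6.48 when single libraries were left out. Fgf18, a secreted ligand of the Fgf8 subfamily, had 2.12, 2.15 and 2.82 FPKM in atria and 0.748, 0.625 and 0.278 FPKM in ventricles. All atria libraries lay above all ventricle libraries, with a log2 fold change of 2.04 (SE 0.46, edgeR adjusted p = 0.0154), but without atria replicate 3 the gene was not called, at 1.89.

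The ligands higher in ventricles were Fgf9, a signal to the growing myocardium, and Fgf1, a ligand that binds all FGF receptors. Fgf9 had 1.19, 1.15 and 0.633 FPKM in atria and 1.88, 3.01 and 2.29 FPKM in ventricles. The log2 fold change was -1.34 (SE 0.29, edgeR adjusted p = 0.0133), and the call was lost without ventricles replicate 2, at -1.16. Fgf1 had 1.44, 0.767 and 1.39 FPKM in atria and 2.50, 2.35 and 2.85 FPKM in ventricles. Here the log2 fold change was -1.17 (SE 0.27, edgeR adjusted p = 0.0185), and the call was lost without atria replicate 2, at -0.92, and without ventricles replicate 3, at -1.06. Fgf1 overlaps another gene on the opposite strand, and whether strand was used in counting is not given in the sources used here, so its counts are uncertain.

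Response genes of E11.5H were split between the chambers. Spry4, a feedback inhibitor of the Ras pathway, had 1.51, 1.94 and 1.73 FPKM in atria and 5.78, 5.40 and 4.95 FPKM in ventricles. It had the lowest adjusted p of the 37 genes, with a log2 fold change of -1.71 (SE 0.14, edgeR adjusted p = 4.30e-05). Etv4, an ETS transcription factor, had 1.51, 1.22 and 1.12 FPKM in atria and 3.74, 2.43 and 3.09 FPKM in ventricles, a log2 fold change of -1.33 (SE 0.28, edgeR adjusted p = 0.00993). Both calls held whichever library was left out. With the adjusted p alone, at which 13.6% of all genes passed, 5 more members passed with smaller differences. Spry2 (log2 fold change -0.91), Etv5 (-0.78), Fgfrl1 (-0.59) and Fgf13 (-0.49) were higher in ventricles, and Spry1 (0.71) was higher in atria. Spry1 and Spry4, inhibitors of one family, thus differed in opposite directions between the chambers. Dusp6, the highest response gene in each group, had 31.9, 34.9 and 26.7 FPKM in atria and 26.6, 24.0 and 26.1 FPKM in ventricles and was not called (log2 fold change 0.22, edgeR adjusted p = 0.207).

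**Figure D2:**
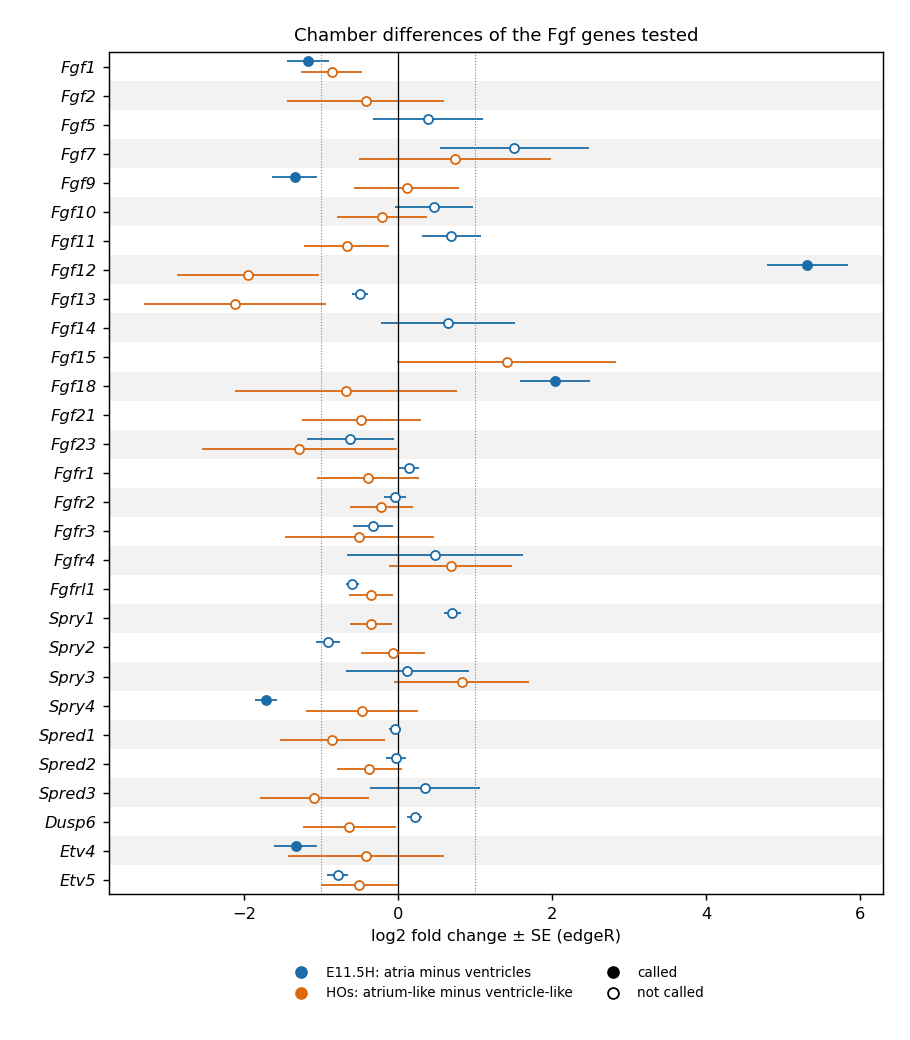
Difference of each Fgf gene tested, as log2 fold change with its standard error (edgeR), for atria minus ventricles of E11.5H (blue) and atrium-like minus ventricle-like parts of HOs (orange). Filled points were called and dotted lines mark an absolute log2 fold change of 1; the 6 filled points are all of E11.5H, and the HO points have wider errors.

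In HOs, none of the 27 genes tested was called between atrium-like and ventricle-like parts by edgeR, and of all 15703 genes tested 0% were called. None of the 27 had an unadjusted p under 0.05, which 5.66% of all genes had, and the lowest adjusted p was 0.750. DESeq2 and limma called none of the 27 either, while over all genes DESeq2 called 56 and limma 0. The genes that differed between chambers of E11.5H overlapped between the parts of HOs in most cases. Fgf12 had 0.0372, 0.192 and 0.0618 FPKM in atrium-like parts and 0.679, 0.380 and 0.124 FPKM in the ventricle-like parts. This was the opposite order from that in E11.5H, but with overlapping groups (log2 fold change -1.95, SE 0.92, edgeR adjusted p = 0.750). Fgf1 was the 1 gene of the 27 whose groups did not overlap, against 13.3% of all genes tested, at 0.813, 1.42 and 0.817 FPKM in the atrium-like and 1.58, 2.20 and 2.38 FPKM in the ventricle-like parts (log2 fold change -0.86, edgeR adjusted p = 0.750). Etv4 had 0.449, 3.49 and 0.514 FPKM in the atrium-like and 3.80, 1.67 and 0.608 FPKM in the ventricle-like parts, so that single libraries set its order. Fgf18 had 0, 0.298 and 1.01 FPKM in the atrium-like and 1.02, 0.676 and 0.584 FPKM in the ventricle-like parts, again with overlap. By the study's methods both parts were cut from the same HOs, but the sources do not say that equal replicate numbers mark the same ones. Between same-numbered parts, Fgf13 was lower in the atrium-like part each time, at 0.211 against 1.002, 2.89 against 13.1 and 0.754 against 3.35 FPKM (log2 fold change -2.11, SE 1.18, edgeR adjusted p = 0.750). With the replicate number as a block its difference was -2.02 (SE 0.32, edgeR adjusted p = 0.541). Fgf11 shared this adjusted p, the lowest of the 27, and none was called. Of the 27, 10 were lower in the atrium-like part in all 3 same-numbered pairs and 0 were higher, against 28.1% and 13.4% of all genes. The 10 were Fgf1, Fgf11, Fgf12, Fgf13, Fgfrl1, Spry1, Dusp6 and Spred1 to Spred3.

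Whether the chamber difference itself differed between HOs and E11.5H was tested as an interaction over all 12 libraries. None of the 29 genes tested was called by edgeR, against 0.152% of all 16494 genes, and 3 of the 29 had an unadjusted p under 0.05, against 11.7% of all genes. The lowest adjusted p belonged to Fgf12, whose chamber difference was lower in HOs by a log2 difference of -7.23 (SE 1.28, edgeR adjusted p = 0.0816). It was called by DESeq2 and, with edgeR, without atrium-like replicate 2 (-8.04) or without ventricle-like replicate 3 (-7.65), and its adjusted p ran from 5.60e-07 to 0.275 over the alternatives. Spry1 had a log2 difference of -1.05 (SE 0.30, edgeR adjusted p = 0.249) and was called by DESeq2 alone, with an adjusted p of 0.0447 to 0.503 over the alternatives. limma called none of the 29.

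Each HO part was then compared with the matching chamber, which sets the FGF4 culture against the embryo. In these comparisons tissue, culture and cell makeup cannot be told apart. Of the 28 genes tested between atrium-like parts and atria, 8 were called, against 24.8% of all 15418 genes. Of the 8, 4 were higher and 4 lower in HOs, against 16.0% and 8.81% of all genes. Of the 28 tested between ventricle-like parts and ventricles, 5 were called, 4 higher and 1 lower in HOs, against 18.9% of all 15094 genes, or 11.6% higher and 7.35% lower. The share of FGF genes called by the main edgeR fit was thus near that of all genes. DESeq2 called 12 and 13 of the 28, against 31.2% and 24.9% of all genes. Its share of FGF genes was thus above that of all genes, the more so in the ventricular comparison. With limma 5 and 4 were called, against 3433 of 15418 and 2288 of 15094 of all genes. The median log2 fold change of the genes tested was 0.29 and 0.99, against 0.06 and 0.09 for all genes. Fgf21 was the one gene called in both comparisons.

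**Figure D3:**
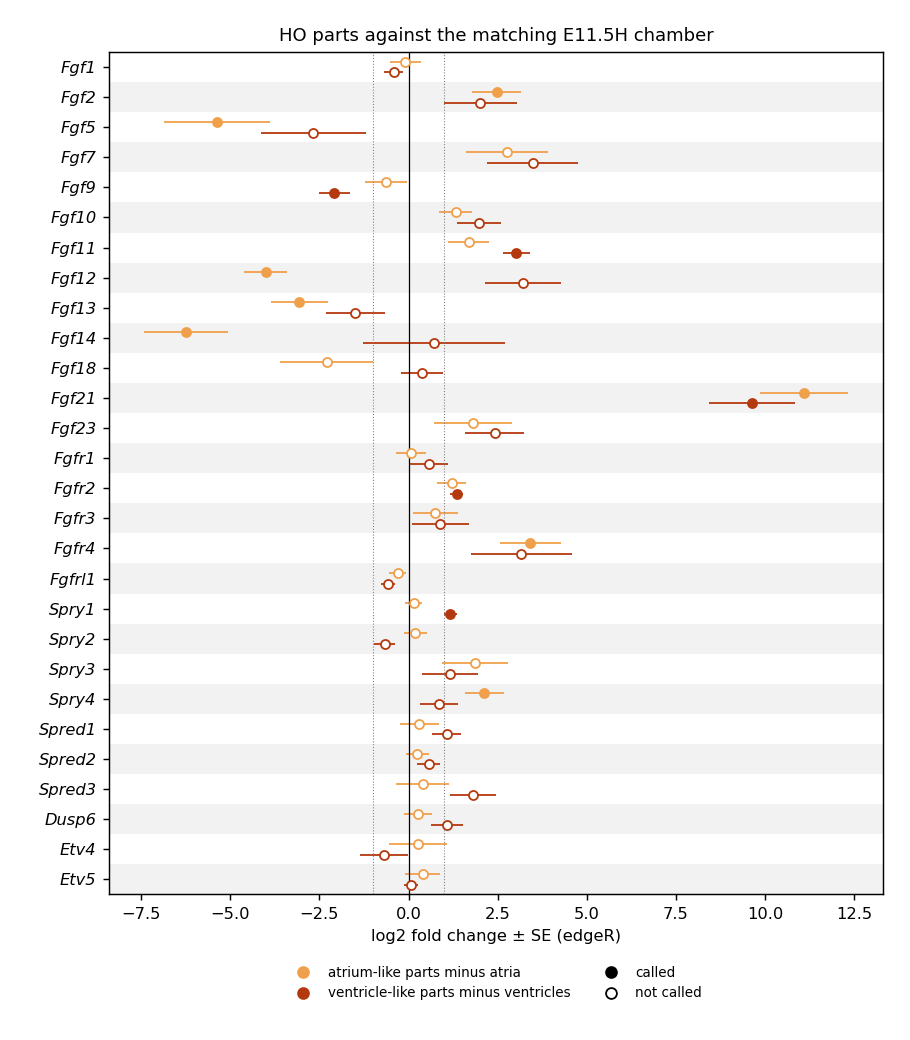
Difference of each Fgf gene tested, as log2 fold change with its standard error (edgeR), for atrium-like parts minus atria (light) and ventricle-like parts minus ventricles (dark), with called genes filled and dotted lines at an absolute log2 fold change of 1. The points of Fgf21, and of Fgf14 in the atrial comparison, rest on a group with at most 1 count and depend on the prior count of the fit, so their position is no estimate of size.

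Fgf21 (chromosome 7 from 45613890 to 45615490, minus strand) encodes a hormone known from the liver, where fasting and cellular stress raise it. It had no count in the 3 atria libraries and 1, 0 and 0 counts in the ventricles. In atrium-like parts it had 132, 151 and 459 counts (4.87, 4.70 and 14.9 FPKM), and in ventricle-like parts 694, 127 and 358 counts (22.4, 4.10 and 11.7 FPKM). Every HO library was thus far above every library of E11.5H. Against a floor of 3 counts per library in atria, the atrium-like parts were at least 89.7-fold higher (edgeR adjusted p = 0.00699). Against the 1 count in ventricles, the ventricle-like parts had a ratio of 1161 (95% exact counting interval 208 to 45909, edgeR adjusted p = 0.00404). The calls held whichever library was left out, and limma did not call the ventricular one (adjusted p = 0.0531, 8.06e-11 to 0.0531 over the alternatives). The summed hepatocyte and visceral endoderm markers were 28117, 1570 and 11331 CPM in atrium-like and 527, 55.4 and 10267 CPM in ventricle-like parts, so the library with the most Fgf21, ventricle-like replicate 1, had less of these markers than every other HO library but ventricle-like replicate 2. Their part in the level of Fgf21 was not tested.

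The 250 bases before the start of Fgf21 are shown because the gene had almost no counts in one tissue and counts in every library of the other. They were taken from RefSeq on GRCm38.p6, chr7:45615491-45615740, minus strand, 5′ to 3′, with a match to TGATGNAA, read on the other strand, in capitals. This motif is the composite element at which ATF4 and C/EBP factors bind.
Fgf21: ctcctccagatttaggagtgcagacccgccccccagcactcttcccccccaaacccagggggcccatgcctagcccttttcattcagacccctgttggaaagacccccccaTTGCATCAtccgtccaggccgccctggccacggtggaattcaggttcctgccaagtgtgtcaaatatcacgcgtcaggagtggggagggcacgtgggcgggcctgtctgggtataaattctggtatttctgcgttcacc
The match begins 139 bases before the start. Searched on both strands over the same 250 bases, the motif was in 3.45% of 32851 RefSeq promoters, and in 1 of the 27 members with an entry. A match describes the letters only, and binding was not measured here.

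The intracellular Fgf genes moved in different directions. Fgf12 fell from 1.68, 1.54 and 1.83 FPKM in atria to 0.0372, 0.192 and 0.0618 FPKM in atrium-like parts (log2 fold change -4.01, SE 0.61, edgeR adjusted p = 0.00658). The call held whichever library was left out. In ventricle-like parts the gene had 0.679, 0.380 and 0.124 FPKM, above the 0.00738 to 0.0843 FPKM of ventricles. The main edgeR fit did not call it (log2 fold change 3.20, SE 1.07, edgeR adjusted p = 0.0677). DESeq2 did (3.23, DESeq2 adjusted p = 0.00952), as did edgeR with all 12 libraries in 1 fit (edgeR adjusted p = 0.0251). Fgf13 (chromosome X from 59062146 to 59585572) had 11.3, 12.3 and 10.3 FPKM in atria and 0.211, 2.89 and 0.754 FPKM in atrium-like parts (log2 fold change -3.07, SE 0.81, edgeR adjusted p = 0.0313). It had 17.0, 13.7 and 14.7 FPKM in ventricles and 1.002, 13.1 and 3.35 FPKM in the ventricle-like parts, where replicate 2 lay near the embryonic level and the gene was not called (log2 fold change -1.49, edgeR adjusted p = 0.216). The atrial call on Fgf13 was lost without any 1 of the atria libraries and without atrium-like replicate 3, with log2 fold changes of -3.14 to -2.86. The ventricular difference was called without ventricle-like replicate 2, at -2.86.

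Fgf14 had 43, 55 and 23 counts in atria and 0, 0 and 1 in atrium-like parts, a ratio of atria to atrium-like parts of 111 (95% exact counting interval 19.5 to 4417, edgeR adjusted p = 0.0122). In ventricle-like parts its 0, 126 and 1 counts came nearly all from replicate 2. The atrial call on Fgf14 was lost without atria replicate 1 or 2, and the gene overlaps another on the opposite strand. Fgf11 had 1.77, 2.16 and 5.61 FPKM in atrium-like parts against 0.656, 1.28 and 1.41 FPKM in atria. The main edgeR fit did not call it (log2 fold change 1.68, edgeR adjusted p = 0.0641), while DESeq2 did (DESeq2 adjusted p = 0.0137). Fgf11 rose in ventricle-like parts, to 5.20, 3.76 and 8.11 FPKM from 0.581, 0.817 and 0.572 FPKM in ventricles (log2 fold change 3.02, SE 0.38, edgeR adjusted p = 0.00418), a call that held whichever library was left out. Of the 4 intracellular genes, 3 fell in atrium-like parts, as did 8.81% of all genes, and 1 rose in ventricle-like parts, as did 11.6%. The summed cardiomyocyte markers, 1249, 3286 and 3498 CPM in atrium-like and 6840, 4601 and 11822 CPM in ventricle-like parts, were lower than in every library of E11.5H, and their part in these differences was not tested.

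Among secreted ligands, Fgf2, a ligand used widely in cell culture and also tried by the study, had 0.244, 0.427 and 0.266 FPKM in atria and 1.81, 1.87 and 0.972 FPKM in atrium-like parts. It was called (log2 fold change 2.47, SE 0.68, edgeR adjusted p = 0.0358) on 6 to 10 counts per library in atria, and the call was lost whichever library was left out, with log2 fold changes of 2.21 to 2.73, and with limma. In ventricles it had 0.583, 0.758 and 0.292 FPKM and in ventricle-like parts 4.18, 2.60 and 0.266 FPKM, with overlap. Fgf5, which ends the growth phase of hair, had 0.350, 1.53 and 1.23 FPKM in atria and 0, 0 and 0.0613 FPKM in atrium-like parts (log2 fold change -5.37, SE 1.48, edgeR adjusted p = 0.0364). This call was lost without any 1 of the atria libraries or without atrium-like replicate 1. The fold rests on 5 counts in atrium-like replicate 3, the others having none, and depends on the prior count of the fit. Fgf9 fell in ventricle-like parts, to 0.362, 0.621 and 0.834 FPKM from 1.88, 3.01 and 2.29 FPKM in ventricles (log2 fold change -2.08, SE 0.42, edgeR adjusted p = 0.0168). All HO libraries lay below all ventricle libraries, but without any 1 of the ventricle libraries the gene was not called, at -2.25 to -1.91.

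Fgf10, the second heart field ligand that the study tried in place of FGF4, was called by DESeq2 in both comparisons and by the main edgeR fit in neither. It had 0.544, 0.344 and 0.303 FPKM in atria and 0.634, 1.02 and 1.03 FPKM in atrium-like parts (log2 fold change 1.32, SE 0.47, edgeR adjusted p = 0.0740). It had 0.198, 0.373 and 0.252 FPKM in ventricles and 0.501, 1.04 and 1.92 FPKM in the ventricle-like parts (log2 fold change 1.97, SE 0.62, edgeR adjusted p = 0.0569). Here edgeR called it with library totals or a minimum count of 50 (edgeR adjusted p = 0.0487 and 0.0431). The same held with all 12 libraries in 1 fit and without ventricle-like replicate 1 (edgeR adjusted p = 0.0241 and 0.0469). In both comparisons all HO libraries lay above all libraries of the matching chamber. Fgf7, a ligand from mesenchyme to epithelium, spread from 0.264 to 5.58 FPKM over the HO libraries and from 0.0464 to 0.830 FPKM over E11.5H, and Fgf23, the bone hormone of phosphate balance, from 0.0776 to 5.37 FPKM and from 0.285 to 0.631 FPKM. In ventricle-like parts Fgf7 had 0.594, 4.13 and 0.427 FPKM against 0.327, 0.0464 and 0.0507 FPKM in ventricles (log2 fold change 3.49, edgeR adjusted p = 0.0859). There Fgf23 had 5.37, 1.68 and 0.662 FPKM against 0.369, 0.631 and 0.363 FPKM (log2 fold change 2.42, edgeR adjusted p = 0.0740). In both cases the groups did not overlap, and DESeq2 called the gene (adjusted p = 0.0117 and 0.0127) while edgeR did not. Between atrium-like parts and atria edgeR called neither. Fgf7 overlaps another gene on the opposite strand. Fgf1 and Fgf18 were tested in both comparisons and called in neither. Fgf15, the gut hormone that acts on the liver, passed the filter only in the comparison of the HO parts and in the interaction, without a call.

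Of the receptor genes, Fgfrl1, a receptor without a kinase domain, was the highest in every group, at 16.9 ± 0.922 FPKM in atria, 24.3 ± 1.74 FPKM in ventricles, 12.4 ± 4.25 FPKM in the atrium-like and 17.5 ± 4.57 FPKM in the ventricle-like parts (SD, n = 3). By library it had 15.9, 17.7 and 17.1 FPKM in atria, 23.4, 26.3 and 23.2 FPKM in ventricles, 7.59, 15.7 and 13.8 FPKM in the atrium-like and 12.7, 21.9 and 17.9 FPKM in the ventricle-like parts. Every HO library lay below every library of the matching chamber, with log2 fold changes of -0.31 and -0.57 and no call (edgeR adjusted p = 0.336 and 0.0723). Fgfr1, the receptor that the study inhibited with a compound, had 5.60, 7.28 and 6.52 FPKM in atria and 2.88, 11.2 and 4.83 FPKM in atrium-like parts. It had 5.90, 4.84 and 5.96 FPKM in ventricles and 6.58, 16.7 and 3.44 FPKM in the ventricle-like parts. Fgfr1 overlaps another gene on the opposite strand. In both HO parts replicate 2 was the highest, and no difference was called (log2 fold changes 0.07 and 0.57, SEs 0.41 and 0.54, edgeR adjusted p = 0.912 and 0.452). Without replicate 2 of the HO part, the values were -0.51 and -0.22.

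Fgfr2 rose in ventricle-like parts, to 17.7, 13.9 and 11.6 FPKM from 5.40, 5.96 and 4.63 FPKM in ventricles. Its log2 fold change was 1.35 (SE 0.19, edgeR adjusted p = 0.00624), and the call held whichever library was left out. In atrium-like parts it had 5.36, 19.9 and 9.62 FPKM against 5.73, 6.17 and 4.39 FPKM in atria, with overlap. The main edgeR fit did not call it there (log2 fold change 1.21, SE 0.40, edgeR adjusted p = 0.0622), while DESeq2 did (DESeq2 adjusted p = 0.0152). Fgfr4, which is known from liver and from skeletal myoblasts, had 0.135, 0.340 and 0.255 FPKM in atria and 0.733, 5.56 and 1.13 FPKM in atrium-like parts (log2 fold change 3.42, SE 0.86, edgeR adjusted p = 0.0277). The call was lost without any 1 of the atria libraries and with limma, and the value was 2.18 without atrium-like replicate 2. In ventricles Fgfr4 had 0.0793, 0 and 0.409 FPKM and in ventricle-like parts 0.864, 2.33 and 1.63 FPKM, without overlap, and DESeq2 called it while edgeR did not (log2 fold change 3.17, SE 1.41, edgeR adjusted p = 0.138). Replicate 2 of each HO part, the highest for Fgfr4, was also the library of that part with Myod1. It had 142 and 155 CPM of the 10 skeletal muscle markers against 3.84 to 18.2 CPM in the other HO libraries. In E11.5H, where Fgfr4 was lower, these markers were at 42.0 to 77.2 CPM in atria and 21.2 to 25.1 CPM in ventricles. The part of these markers in the level of Fgfr4 was not tested. Fgfr3 spread from 0.473 to 5.13 FPKM over HOs, against 1.09 to 2.08 FPKM over E11.5H, and was not called.

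Of the summed FPKM of the 4 kinase receptors, Fgfr2 took 44.1%, 41.4% and 34.2% in atria and 40.8%, 46.3% and 37.8% in ventricles. It took 56.1%, 48.5% and 55.1% in atrium-like and 69.1%, 36.6% and 54.3% in ventricle-like parts. All atrium-like parts lay above all atria (mean difference 13.3 percentage points, two-sided exact permutation p = 0.1, the smallest that 3 against 3 allows), while ventricle-like replicate 2 lay below the ventricles (11.7 points, exact permutation p = 0.4). Adjusted over 4 such comparisons, the lowest p was 0.4. Counts per gene do not tell apart the b and c splice forms of Fgfr1 to Fgfr3, which bind different ligands.

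**Figure D4:**
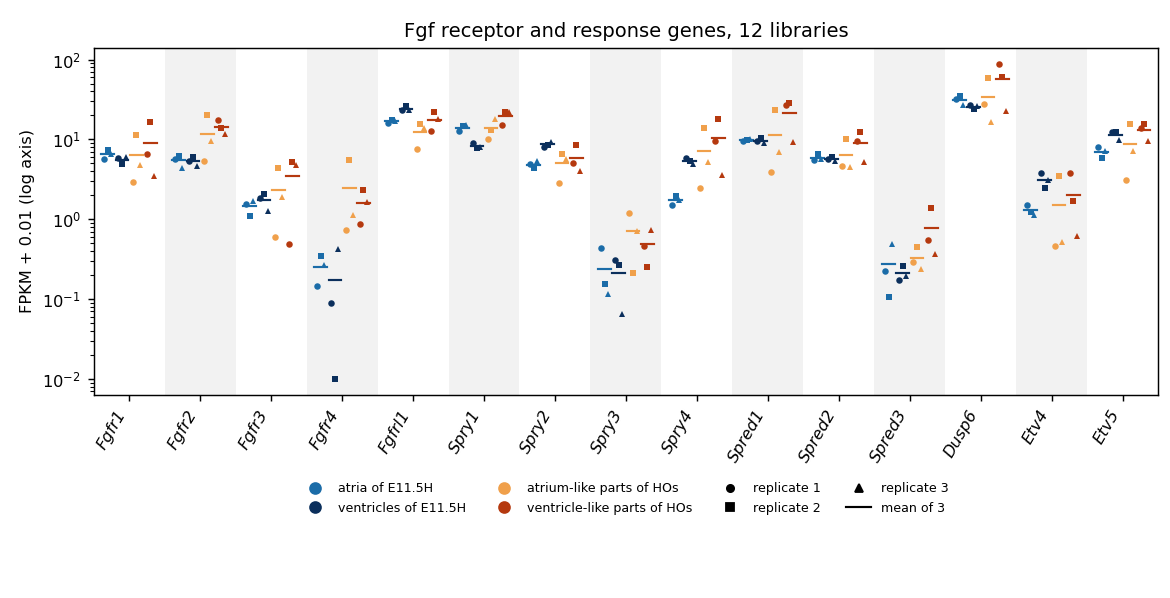
Level of the 5 receptor and 10 response genes in each of the 12 libraries, as FPKM plus 0.01 on a log axis, with colours for the 4 groups, symbols for the replicate number and bars for the mean of 3 libraries. Libraries of E11.5H lie close together, at 24.0 to 34.9 FPKM for Dusp6, and those of HOs spread widely, at 16.5 to 88.8 FPKM.

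The response genes were of interest because HOs grew with FGF4. All 10 were tested in both comparisons, and the main edgeR fit called 1 in each, against 24.8% and 18.9% of all genes called. These were Spry4 in atrium-like and Spry1 in ventricle-like parts, both higher in HOs. Spry4 had 2.43, 13.7 and 5.15 FPKM in atrium-like parts against 1.51, 1.94 and 1.73 FPKM in atria (log2 fold change 2.13, SE 0.55, edgeR adjusted p = 0.0292). The call was lost without any 1 of the atria libraries or without atrium-like replicate 3 and with limma, and the value was 1.36 without atrium-like replicate 2. In ventricle-like parts it had 9.59, 18.03 and 3.55 FPKM against 5.78, 5.40 and 4.95 FPKM in ventricles, with overlap (log2 fold change 0.85, edgeR adjusted p = 0.263). Spry1 had 15.0, 22.3 and 22.1 FPKM in the ventricle-like parts against 8.88, 7.72 and 8.01 FPKM in ventricles (log2 fold change 1.18, SE 0.18, edgeR adjusted p = 0.00780), and the call was lost without ventricles replicate 2, at 1.11. In atrium-like parts it had 10.1, 13.2 and 18.2 FPKM against 12.8, 14.5 and 14.9 FPKM in atria (log2 fold change 0.14, edgeR adjusted p = 0.667).

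Dusp6, the ERK phosphatase and the highest response gene, had 27.5, 58.2 and 16.5 FPKM in atrium-like parts, on both sides of the atria (log2 fold change 0.26, SE 0.40, edgeR adjusted p = 0.650). In ventricle-like parts it had 88.8, 60.9 and 22.7 FPKM, and replicate 3 lay below all ventricles (log2 fold change 1.08, SE 0.46, edgeR adjusted p = 0.125). Etv4, Etv5, Spred1 to Spred3, Spry2 and Spry3 were not called by the main edgeR fit. In ventricle-like parts, however, DESeq2 called Dusp6, Spred1 and Spred3 higher than in ventricles. Their log2 fold changes were 1.09, 1.09 and 1.82 (DESeq2 adjusted p = 0.0443, 0.0240 and 0.0319). The count of called genes moved with single libraries. It was 3 without ventricles replicate 2, when 1116 of all 15954 genes tested were called. Without ventricle-like replicate 3, which had the lowest Dusp6, Spred1, Spred2, Spred3, Spry2, Spry4, Etv4 and Etv5 levels of its group, 13 FGF genes were called against ventricles in place of 5, while the share of all genes called was 23.9% in place of 18.9%. Dusp6 (1.44), Spred1 (1.41), Spred3 (2.11), Spry4 (1.22), Fgf2 (2.52), Fgf7 (3.90), Fgf12 (3.61) and Fgf23 (2.86) were those added, each with its log2 fold change. In ventricle-like replicate 3, Spry3 was the highest of its group, at 0.731 FPKM, and Spry1, at 22.1 FPKM, was not the lowest. That library also had 10267 CPM of hepatocyte and visceral endoderm markers, against 527 and 55.4 CPM in the other ventricle-like libraries, and the most cardiomyocyte marker RNA of the HO libraries. Its fibroblast and mesenchyme markers were at 3575 CPM against 31354 and 13641 CPM, and its endothelial markers at 34.2 CPM against 329 and 291 CPM. Markers of skeletal muscle, neural cells and macrophages were also lowest there within the ventricle-like parts, and those of gut epithelium and epicardium highest. The part of these markers in the change of calls was not tested.

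The 250 bases before the start of Dusp6 are shown as those of the leading response gene, from RefSeq on GRCm38.p6, chr10:99262981-99263230, plus strand, 5′ to 3′. A match to CGGAAG, the core of many ETS factor sites, is in capitals and is read on the other strand.
Dusp6: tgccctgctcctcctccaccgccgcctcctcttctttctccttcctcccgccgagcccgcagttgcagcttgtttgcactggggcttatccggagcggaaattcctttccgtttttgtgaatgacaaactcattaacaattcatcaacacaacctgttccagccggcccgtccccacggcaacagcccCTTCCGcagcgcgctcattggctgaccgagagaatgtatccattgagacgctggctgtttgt
The match begins 62 bases before the start. On either strand, the 6 letters were in 3 of the 7 response genes with an entry, Dusp6, Spred1 and Spred2, and in 13.6% of the 32851 promoters. The match describes the letters only.

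Genes around the FGF pathway were read from lists of related function. The lists were chosen with earlier results of these data known, so the counts called within them describe these data only. The 11 other ERK response genes, which many growth factors and also tissue handling are known to raise, moved the most. Of the 11 tested in the atrial comparison and the 10 tested in the ventricular one, 10 were called in each, 8 higher and 2 lower in HOs, against 24.8% and 18.9% of all genes called. They had median log2 fold changes of 2.33 and 2.12 against 0.06 and 0.09 for all genes. Leaving out single libraries gave 6 to 9 higher and 1 or 2 lower. Egr1, an immediate early transcription factor, had 2.76, 2.75 and 3.76 FPKM in atria and 31.8, 85.7 and 65.6 FPKM in atrium-like parts (log2 fold change 4.43, SE 0.35, edgeR adjusted p = 0.00145). It had 8.06, 9.05 and 7.65 FPKM in ventricles and 99.7, 95.5 and 65.2 FPKM in the ventricle-like parts (log2 fold change 3.30, SE 0.20, edgeR adjusted p = 0.00115). Every HO library lay far above E11.5H. Also higher in both the atrium-like and the ventricle-like parts were the immediate early gene Fos (log2 fold changes 4.80 and 3.31), Ier3 (3.61 and 3.48), the phosphatase gene Dusp5 (2.43 and 1.95) and Phlda1 (2.33 and 2.50). The atrial call on Dusp5 was lost without any 1 of the atria libraries. Epha2 and Myc were called higher in both comparisons, Fosl1 in the atrial and Dusp4 in the ventricular one. Etv1, an ETS factor related to Etv4 and Etv5, fell in both, with log2 fold changes of -3.07 and -1.89, and so did the cyclin gene Ccnd1, with -1.77 and -2.14. The ventricular call on Etv1 was lost without ventricles replicate 1, at -1.77. In E11.5H, Egr1 was lower in atria than in ventricles (log2 fold change -1.49, edgeR adjusted p = 0.000237), the direction also seen for Spry4 and Etv4.

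**Figure D5:**
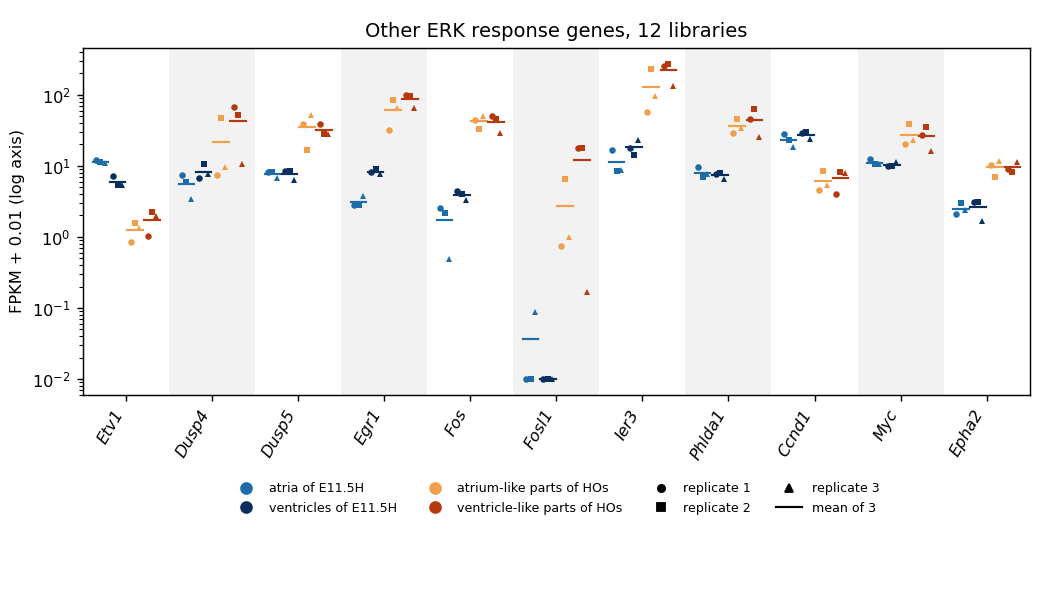
Level of the 11 other ERK response genes in each of the 12 libraries, as FPKM plus 0.01 on a log axis, with colours for the 4 groups, symbols for the replicate number and bars for the mean of 3 libraries. Egr1 lay at 31.8 to 99.7 FPKM in HOs and 2.75 to 9.05 FPKM in E11.5H, while Etv1 and Ccnd1 lay lower in HOs.

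Of the 8 co-receptors and binding proteins, 2 of 6 tested were called between chambers of E11.5H, against 4.90% of all genes. Between HO parts and the matching chambers 3 of 8 and 1 of 7 were called, against 24.8% and 18.9%. Klb, the co-receptor of Fgf21 and Fgf15, had no count in atria and 2.63, 8.73 and 4.50 FPKM in atrium-like parts, at least 208-fold higher against a floor of 3 counts per library (edgeR adjusted p = 0.00359). In ventricle-like parts it had 0.169, 0.116 and 2.69 FPKM and was not called. Fgf21 was thus present in all HO libraries, and its co-receptor mainly in atrium-like parts and ventricle-like replicate 3. Hepatocyte and visceral endoderm markers were at 28117, 1570 and 11331 CPM in atrium-like and 527, 55.4 and 10267 CPM in ventricle-like parts. Among atrium-like parts, replicate 2 had the most Klb and the least of these markers. The part of these markers in the level of Klb was not tested. Kl, the co-receptor of Fgf23, was higher in atria than in ventricles (log2 fold change 4.52, SE 0.97, edgeR adjusted p = 0.0118) and had 2 counts in all atrium-like parts together. The ratio of atria to atrium-like parts was 116 (95% exact counting interval 31.6 to 959, edgeR adjusted p = 0.00973). Fgfbp1, a carrier that releases FGFs from the matrix, had 21.7, 3.48 and 22.9 FPKM in the ventricle-like parts and no count in ventricles, at least 214-fold higher (edgeR adjusted p = 0.0112). In atrium-like parts it had 9.27, 0.993 and 20.6 FPKM against 1 count in atria (edgeR adjusted p = 0.00833). limma called Fgfbp1 in neither comparison (adjusted p = 0.106 and 0.109). The atrial calls on Fgfbp1 and Kl, and the chamber call on Kl, were lost without atria replicate 2. Flrt2, which binds FGF receptors, was higher in atria than in ventricles (log2 fold change 1.18, edgeR adjusted p = 0.000829).

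Of 21 heparan sulfate proteoglycans and enzymes, 19 were tested in each comparison. Sdc4 and Sdc1, syndecans that carry heparan sulfate at the cell surface, were called higher in both HO parts, with log2 fold changes of 2.52 and 2.58 for Sdc4 and 1.23 and 1.36 for Sdc1, and no other gene of the list was called, against 24.8% and 18.9% of all genes. The call on Sdc1 in atrium-like parts was lost without any 1 of the atria libraries or without atrium-like replicate 2, with values down to 0.93. Of the 20 genes of the Ras and ERK cascade, Map2k1 (1.16) and Mapk3 (1.11), the genes of MEK1 and ERK1, were called higher in atrium-like parts, as were 16.0% of all genes, and the calls were lost without atria replicate 1 or 3 for both. Mapk3 also lost its call without atria replicate 2, without atrium-like replicate 1 (0.81) or 3, and with scaling by library totals (0.94). In ventricle-like parts edgeR called none of the 20, with 10 at an unadjusted p under 0.05, which 42.8% of all genes had, and DESeq2 and limma called 1 each. Of 7 second heart field genes, edgeR called 1 against each chamber, Mef2c, lower in HOs (-1.96 and -1.43), against 24.8% and 18.9% of all genes. DESeq2 and limma called 3 of the 7 in each. Of all genes DESeq2 called 31.2% and 24.9%, and limma 3433 of 15418 and 2288 of 15094. The median log2 fold change of the 7 was -1.79 and -0.68. Leaving out single libraries gave 0 to 5 and 1 to 3 lower. Between chambers of E11.5H, edgeR called Eya1, higher in atria than in ventricles (1.92), against 4.90% of all genes. The atrial call on Mef2c was lost without any 1 of the atria libraries or without atrium-like replicate 3, and that on Eya1 without atria replicate 3 (1.48) or ventricles replicate 2 or 3. Between the parts of HOs, edgeR, DESeq2 and limma called none of the 64 genes of these 5 lists that were tested, and 2 had an unadjusted p under 0.05, against 5.66% of all genes. In the interaction edgeR and limma called none of 66 and DESeq2 1, with 5 at an unadjusted p under 0.05, against 11.7% of all genes.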

How the data were processed

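RNA of 12 libraries, 3 per group, was sequenced after preparation with an Illumina TruSeq kit per the labels. The authors mapped reads with STAR to GRCm38/mm10 and deposited expected counts, of which 23.8% were not whole, and FPKM values per gene. The versions, counting tool, annotation and strand setting are not given in the sources used here. The deposited FPKM equals the count divided by transcript width and by 1 total per library, without correction for composition. After rounding, all genes that passed filterByExpr (minimum count 10) entered the quasi-likelihood test of edgeR 4.0.16 (R 4.3.3) with TMM scaling. Only the libraries of a comparison entered its fit, and all 12 that of the interaction. Genes were called below an adjusted p (Benjamini-Hochberg) of 0.05 where the log2 fold change was beyond 1 in either direction. Log2 fold changes are the first group named minus the second, or HOs minus E11.5H. Since edgeR gives no standard error for them, each SE is the size of the log2 fold change divided by the square root of the quasi-likelihood F statistic, an approximation. DESeq2 1.42.0, limma 3.58.1, other scalings and filters, and leaving out each library served as alternatives, and the fits were checked on simulated data. Permutation tests used scipy 1.17.1, and plots matplotlib 3.10.9.

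Values by library were given for genes called in any comparison, for Fgf4, Fgfr1, Fgf10 and Fgf2, and for the highest gene of each class. From related lists at most 4 genes with the smallest p were named per comparison of tissues. Genes outside this rule (Egr1, Kl, Flrt2 and Eya1 between chambers, Etv1, Ccnd1 and Phlda1 in ventricle-like parts, Fos, Ier3 and Dusp5 in atrium-like parts, Epha2, Myc, Fosl1, Dusp4, and the markers named) were chosen after their values were seen. 1 gene was left out of the related lists and is not reported here. The members and lists were chosen with earlier results of these data known. Libraries of a group differed by more than sampling noise, and all 12 were counted. Intervals and floors cover counting error only.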

Additional observations from a re-analysis of the deposited data

How the results depend on the processing

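Between the chambers of E11.5H the 6 calls became 11 without a limit on the fold change and 0 when all 12 libraries shared 1 fit. Over all genes, the main fit called 712 of 14536, the fit without that limit 1982 of 14536 and the shared fit 30 of 16494. Leaving out single libraries gave 5 to 6 of the Fgf genes and 538 to 765 of all genes. For atrium-like parts against atria the 8 calls became 5 with a minimum count of 50, with limma and with a replicate block, and 12 with DESeq2. All-gene calls, 3821 of 15418 in the main fit, were 3532 of 13383, 3433 of 15418, 2806 of 15418 and 4805 of 15418, in that order. The 8 calls became 2 to 8 when single libraries were left out. They were 2 without atria replicate 1 or 2, 3 without atria replicate 3 and 5 without atrium-like replicate 3. Without the same libraries, 1662 of 16060, 1690 of 16026, 1726 of 16049 and 2915 of 15888 of all genes were called. For ventricle-like parts against ventricles the 5 calls became 13 with DESeq2 and 3 to 13 when single libraries were left out, with 13 without ventricle-like replicate 3 and 3 without ventricles replicate 2. Of all genes, the main fit called 2859 of 15094 and DESeq2 3752 of 15094. Without those 2 libraries, in that order, 3725 of 15606 and 1116 of 15954 were called. The interaction gave 0 calls, 2 with DESeq2, and 0 to 1 when single libraries were left out. Of all 16494 genes the interaction gave 25 calls, and 444 with DESeq2. Between HO parts the count of Fgf genes called was 0 under every alternative run. The cause of these changes was not tested, apart from the fewer genes or libraries that an alternative leaves.

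Some log2 fold changes near 0 changed sign. For Fgfr1 in atrium-like parts against atria the value was -0.018 with library totals in place of TMM, -0.014 with limma and -0.085 with the replicate block, and -0.51 to 0.34 when single libraries were left out. With single libraries left out, it was -0.22 to 0.91 for Fgfr1 in ventricle-like parts, -0.23 to 0.56 for Dusp6 in atrium-like parts and -0.13 to 0.25 for Spry1 in atrium-like parts. Over 84 values of single genes or receptor shares and all their alternatives, 1160 recomputed values kept direction and call, 80 lost the call, 38 gained it and 8 changed sign. Both parts of HOs and both chambers of E11.5H were cut from the same organs, but nothing states that equal numbers mark the same ones, and between tissues samples share only a number. Deviations of same-numbered samples correlated at 0.01 to 0.04 between chambers of E11.5H, at 0.02, 0.59 and 0.36 between HO parts and at -0.02 to 0.07 between tissues, and not every sample correlated best with its own number. CPM in place of FPKM moved the mean share of Fgfr2 by less than 1 SD in each group. A low-count gene such as Fgf4 could not be tested at this depth.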
